A study of Mus musculus with 13 samples.

Results

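The genes described here are those carried on the mouse mitochondrial chromosome. Earlier results of these data were known when this set and the lists beside it were chosen, but membership went by name alone. Every gene whose symbol starts with mt- was taken, and no measured value decided it. The reference annotation (GENCODE M21, build GRCm38) holds 37 such genes, and 36 of them are among the 34013 genes of the count table: all 13 protein genes, both rRNA genes and 21 of the 22 tRNA genes. The tRNA gene mt-Tf was not analysed here. The libraries are bulk RNA-seq of perivascular adipose tissue (PVAT), the fat around blood vessels, from mice on a C57BL/6 background that were given splenocytes. The donors were wild type (WTS-R, 3 libraries), Nlrp3 knockout (NS-R, 3 libraries), diabetic, labelled T2DM (TS-R, 4 libraries), or both Nlrp3 knockout and T2DM (NTS-R, 3 libraries). Every group received cells, so there was no group without a transfer, and the genotype label does not say whether it describes donor or recipient. No age, sex, batch, dose of cells or diabetes model is given in the labels, nor whether each library is a separate animal. The p-values thus set group differences against the spread between libraries, which may be technical.

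The mitochondrial chromosome is a small circle present in many copies per cell. It encodes core subunits of the respiratory chain: mt-Nd genes for complex I, which oxidises NADH, mt-Cytb for complex III, mt-Co genes for complex IV, which reduces oxygen, and mt-Atp genes for the ATP synthase, complex V. All other subunits, and the polymerase and ribosomal proteins that express the mitochondrial genes, come from nuclear genes. The genes are transcribed as long transcripts from both strands and cut apart, largely at the tRNAs, so most of them share their transcription and differ in processing and stability. PVAT contains brown-like adipocytes, which are rich in mitochondria and use the chain to make heat.

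On the chromosome several of these genes overlap, and part of it has a near-identical copy in the nuclear genome, which limits how reads can be assigned. A block at chr1:24611535-24616197 (GRCm38, minus strand, 4663 bases) holds 7 genes annotated as unprocessed pseudogenes. They match mt-Co1 in its last part (Gm29216), mt-Co2 (Gm28661), mt-Atp6 (Gm10925), mt-Co3 (Gm28437), mt-Nd3 (Gm28438), mt-Nd4l (Gm10222) and mt-Nd4 in its first part (Gm28439). Over the aligned bases, 5 of the 7 copies had no mismatch: 681 bases of mt-Co2, 678 of mt-Atp6, 783 of mt-Co3, 294 of mt-Nd4l and 876 of mt-Nd4. The copy of mt-Nd3 differed at 1 of 345 bases. The copy of mt-Co1 differed at 6 of 492 bases, all between positions 1056 and 1066 of mt-Co1, counted from its first base. mt-Nd3 has 348 annotated bases and its copy 345. The first 27 bases of mt-Nd3 (chrM:9459-9485, plus strand) and of its copy (chr1:24613093-24613119, minus strand) show the only mismatch over the aligned bases, T3C. In this name mt-Nd3 has the first base and the copy the second, at a position counted from the start of the gene. The capital marks it.
mt-Nd3: atTaacctgtacactgttatcttcatt
Gm28438: atCaacctgtacactgttatcttcatt
The first 50 bases of mt-Co2 (chrM:7013-7062, plus strand) and of Gm28661 (chr1:24615516-24615565, minus strand) are given as an example of a stretch that cannot tell the chromosomes apart, with the start codon in capitals.
mt-Co2: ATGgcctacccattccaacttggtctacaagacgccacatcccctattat
Gm28661: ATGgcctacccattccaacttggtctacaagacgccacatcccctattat
The whole of mt-Atp8 (chrM:7766-7969, plus strand, 204 bases) is shown because it varied more between libraries than any other protein gene; the capitals mark the 43 bases it shares with mt-Atp6.
mt-Atp8: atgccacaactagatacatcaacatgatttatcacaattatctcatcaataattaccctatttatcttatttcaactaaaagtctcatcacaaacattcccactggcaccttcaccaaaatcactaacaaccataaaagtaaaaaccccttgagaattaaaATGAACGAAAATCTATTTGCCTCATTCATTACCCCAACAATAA
The proline tRNA mt-Tp (chrM:15356-15422, minus strand, 67 bases, written 5′ to 3′ of its own strand) is shown because it held most tRNA counts.
mt-Tp: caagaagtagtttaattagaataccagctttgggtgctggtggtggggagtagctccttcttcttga
Of the 9 overlapping pairs of mitochondrial genes, mt-Nd4l and mt-Nd4 share 7 bases, and mt-Nd5 and mt-Nd6, which lie on opposite strands, share 14. Another 6 pairs, such as mt-Atp6 and mt-Co3, share 1 to 3 bases. Sequences and positions are from the reference; the build the authors aligned to is not given in the sources used here.

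Library totals ran from 14216706 to 37011122 counts. All 12 brown adipocyte markers and all 10 general adipocyte markers had counts in every library, so the defining markers of the labelled tissue were present. Tissue content was uneven within groups. TS-R replicate 1 held 15610 CPM (counts per 1000000 library counts) on the 11 skeletal muscle markers, against 13.6 to 2260 CPM in the other libraries. TS-R replicate 3 held 2913 CPM on the 10 B cell markers and 903 CPM on the 10 T cell markers, and it had the lowest sum of the brown adipocyte markers, 1294 CPM, where the other 12 libraries had 4103 to 8134 CPM. NS-R replicates 1 and 2 held 3177 and 6493 CPM on the 8 airway and lung markers, against 4.36 to 12.1 CPM in the other 11 libraries. In bulk tissue, fewer cells of a type and less RNA per cell cannot be told apart.

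Mitochondrial genes took a large and variable share of every library. They held 25.6%, 27.1% and 21.1% of the counts in WTS-R, 27.8%, 22.5% and 36.7% in NS-R, 6.11%, 22.7%, 15.3% and 22.5% in TS-R, and 23.5%, 29.0% and 33.4% in NTS-R. Every NTS-R library thus lay above every TS-R library, while TS-R overlapped WTS-R through replicates 2 and 4. The group means were 24.6% ± 3.12 (SD, n = 3) in WTS-R, 29.0% ± 7.16 (SD, n = 3) in NS-R, 16.7% ± 7.82 (SD, n = 4) in TS-R and 28.7% ± 4.98 (SD, n = 3) in NTS-R. The ratio of the geometric means was 1.92 for NTS-R against TS-R (two-sided exact permutation test of log2 values, p = 0.114) and 0.605 for TS-R against WTS-R (exact p = 0.229). Without TS-R replicate 1, the log2 difference was 0.515 in place of 0.94 for NTS-R against TS-R and -0.30 in place of -0.73 for TS-R against WTS-R. Averaged over donor diabetes, knockout donors gave 1.49 times the share of donors with intact Nlrp3 (exact permutation within strata, p = 0.0529). Each of these 48 permutation tests (8 measures in 6 comparisons) was adjusted with Benjamini-Hochberg, and none passed: the adjusted p was 0.499 for NTS-R against TS-R, 0.75 for TS-R against WTS-R and 0.457 for the knockout average, and 0.457 was the lowest of all 48. The smallest p the exact test can give is 0.0286 for 3 against 4 libraries and 0.1 for 3 against 3.

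**Figure D1:**
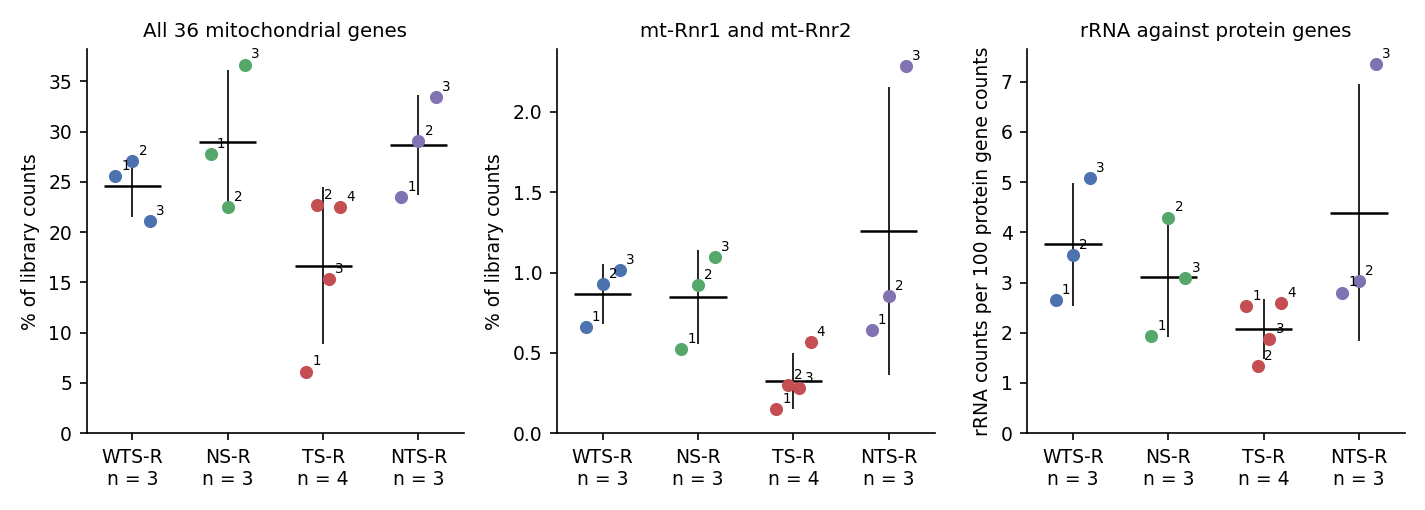
Share of library counts on all 36 mitochondrial genes (left), share on both rRNA genes (middle) and rRNA counts per 100 protein gene counts (right), by donor group. Each point is a library with its replicate number; horizontal bars are group means and vertical bars ± SD. The NTS-R points lie above the TS-R points in all panels, and TS-R replicate 1 is lowest in the left panel at 6.11%.

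Within that share, protein genes held 96.8% of the counts, rRNA genes 3.04% and tRNA genes 0.141%, over all libraries together. Per kb of gene, mt-Co1, the catalytic subunit of complex IV, was highest, with a mean of 73450 CPM per kb. It was followed by mt-Cytb at 36470 CPM per kb, mt-Nd1 at 18020, mt-Nd2 at 13690 and mt-Nd4 at 13670 CPM per kb. The lowest protein genes were mt-Nd4l at 961.7, mt-Nd3 at 596.8 and mt-Atp8 at 320.5 CPM per kb. The neighbours mt-Nd2 and mt-Nd4 in this order differed by far less than their spread over libraries, as did mt-Rnr2 at 3108 and mt-Rnr1 at 3084 CPM per kb. The 5 protein genes with a copy of nearly their whole length on chromosome 1 had a median of 6040 CPM per kb (range 597 to 8730). The 5 outside the stretch of the copies had a median of 13700 CPM per kb (range 3700 to 36500), and the 2 copied in part had 13700 and 73400 CPM per kb. mt-Atp8 lies between copied genes but has no annotated copy, and its own sequence was not aligned to chromosome 1. The part of the copies in this order was not tested.

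**Figure D2:**
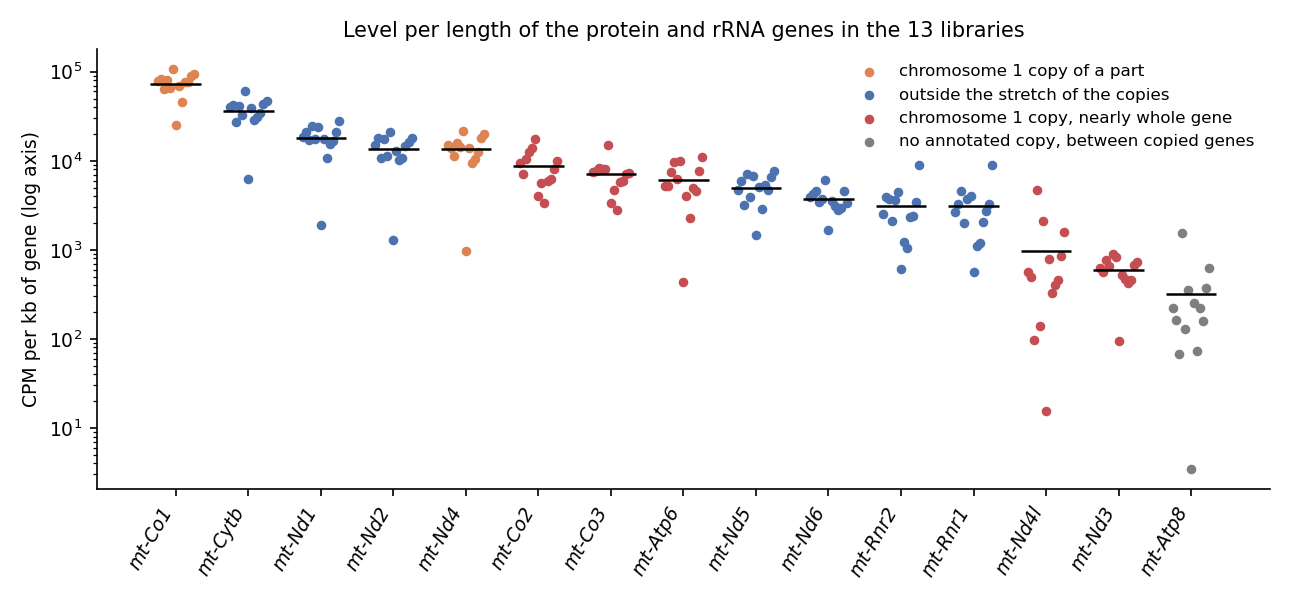
Level of the 13 protein and 2 rRNA genes per kb of gene, in CPM per kb on a log axis, ordered by mean (black bars). Each point is a library and colours give whether the gene has an annotated copy on chromosome 1. Points far below the rest in mt-Nd1, mt-Nd2, mt-Nd4, mt-Atp6 and mt-Atp8 belong to TS-R replicate 1.

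For the test of single genes, 17270 genes of the table passed a filter on low counts, among them 27 members: the 13 protein genes, both rRNA genes and 12 tRNA genes. The other 9 members, all tRNA genes, were too low to be tested. At a false discovery rate (FDR) under 0.05, edgeR's quasi-likelihood test called no member, and no gene at all (0% of those tested), in any of the 7 comparisons. Counts at an unadjusted p under 0.05 are given below beside the share of all tested genes that reached it.

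TS-R against WTS-R asks what diabetes of the donor does when Nlrp3 is intact. All 27 tested members had a fitted value below 0, against 47.6% of all genes (52.4% were above 0); the members' median log2 fold change was -0.90 and the median of all genes 0.03. At an unadjusted p under 0.05, 7 of 27 were lower, where 7.07% of all genes were, and none was higher (15.2% of all genes). The CPM values of the groups did not overlap for 7 of 27 (2.39% of all genes in that direction, 19.2% in the other): mt-Rnr1, mt-Rnr2, mt-Co2, mt-Co3, mt-Atp6, mt-Nd3 and mt-Nd6. Members come from the same transcripts, so these counts are not independent observations. DESeq2 called 4 of them lower (mt-Co2, mt-Co3, mt-Rnr1 and mt-Rnr2; 1.97% of all genes), and limma voom with quality weights called the same 4 (8.59% of all genes). Single libraries moved these counts. Without TS-R replicate 1, the median of the 27 members was -0.62 and 25 of 27 were fitted lower. Without TS-R replicate 4, edgeR called mt-Rnr1 (log2 fold change -2.17, FDR 0.0412) and mt-Rnr2 (-2.11, FDR 0.048), and 12 members reached an unadjusted p under 0.05. Without WTS-R replicate 3 that number was 4.

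NTS-R against TS-R asks what loss of Nlrp3 in diabetic donors does. It uses the same TS-R libraries, so a low TS-R library moves both comparisons and their values are given side by side without an overlap. All 27 members were fitted higher (47.4% of all genes), with a median log2 fold change of 1.36 where all genes had -0.03. At an unadjusted p under 0.05, 17 of 27 were higher (5.59% of all genes). The groups' CPM values did not overlap for 8 of 27 (1.07% of all genes): mt-Rnr1, mt-Rnr2, mt-Co2, mt-Co3, mt-Nd2 and the tRNA genes mt-Tn, mt-Ty and mt-Tq. DESeq2 called 9 members higher (1.13% of all genes) and limma voom 4 (2.2% of all genes), the rRNA genes among them in each. The median was 1.05 without TS-R replicate 1 and 1.06 without NTS-R replicate 3, and the count at an unadjusted p under 0.05 was then 14 and 6. Without TS-R replicate 1, edgeR called mt-Rnr1 (log2 fold change 2.08, FDR 0.0442) and mt-Tn (1.60, FDR 0.0438). Without TS-R replicate 4 it called 5 members: mt-Rnr1, mt-Rnr2, mt-Tq, mt-Tn and mt-Ty (FDR 0.0445 to 0.0453).

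**Figure D3:**
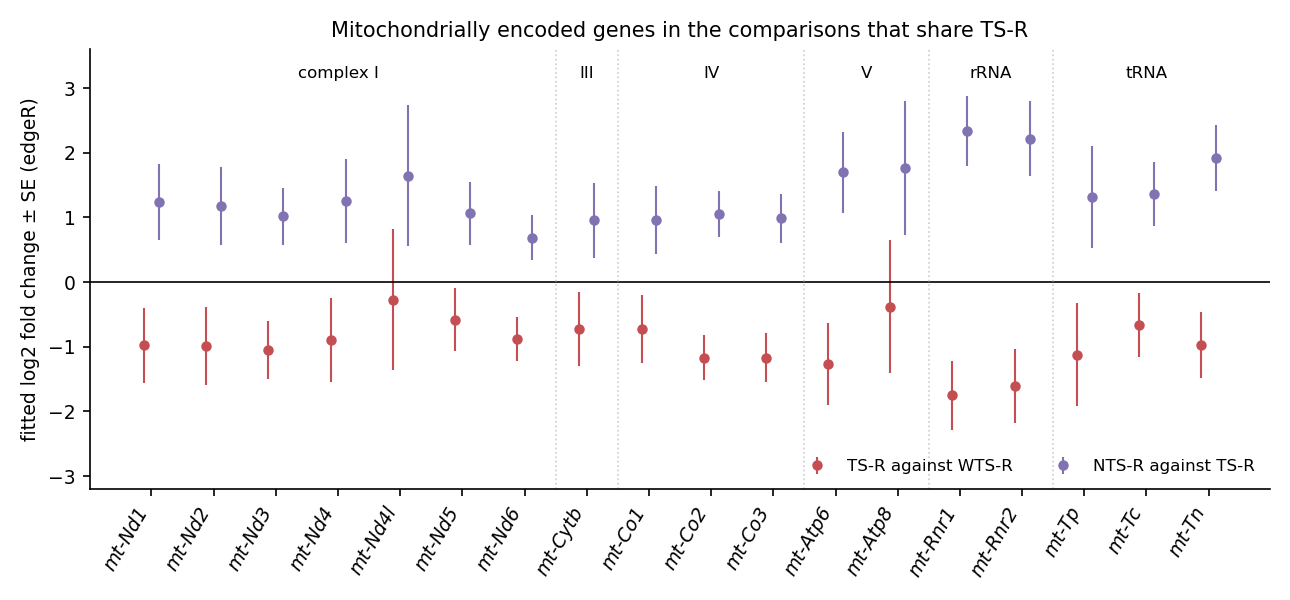
Fitted log2 fold change with its standard error (edgeR) for the 13 protein genes, both rRNA genes and the 3 most abundant tRNA genes, in TS-R against WTS-R (red) and NTS-R against TS-R (purple). All red points lie below 0 and all purple points above it, and of the genes shown the rRNA genes lie farthest from 0 in both; the TS-R libraries enter both comparisons.

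Of the complex I genes, mt-Nd3, a small subunit of the membrane arm, measured 218.7, 198.4 and 270.2 CPM across WTS-R and 32.95, 183.2, 165.2 and 147.9 across TS-R. In NS-R it reached 227.4, 313.5 and 292.4 CPM and in NTS-R 160.2, 237.3 and 252.7 CPM. All TS-R values lay below all WTS-R values, by a narrow margin apart from replicate 1. The log2 fold change was -1.05 (SE 0.44, edgeR FDR 0.187). Its copy on chromosome 1 took a median of 61.8% of the counts of the pair, more than the gene itself.

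mt-Nd6, the only protein gene on the light strand, measured 2058, 2199 and 2383 CPM across WTS-R, 1785, 1952 and 3162 across NS-R, 868, 1839, 1614 and 1455 across TS-R, and 1514, 2395 and 1760 across NTS-R. TS-R lay below WTS-R without overlap, and NTS-R overlapped both. The log2 fold change of TS-R against WTS-R was -0.89 (SE 0.34, edgeR FDR 0.153). As a share of the protein gene counts, mt-Nd6 made up 0.953% ± 0.205 (SD, n = 3) in WTS-R, 0.818% ± 0.14 (SD, n = 3) in NS-R, 1.0% ± 0.346 (SD, n = 4) in TS-R and 0.693% ± 0.145 (SD, n = 3) in NTS-R. All of these groups overlapped (adjusted exact p from 0.499 to 0.992). The strand setting of the counting is not given in the sources used here, so reads of mt-Nd6 and of the transcript opposite to it cannot be told apart.

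mt-Nd2, a proton-pumping subunit, measured 15690, 18560 and 11190 CPM across WTS-R, 18230, 11760 and 21620 across NS-R, 1325, 13520, 10570 and 11170 across TS-R, and 15240, 17020 and 18820 across NTS-R. NTS-R lay above TS-R throughout, and its log2 fold change was 1.18 (SE 0.60, edgeR FDR 0.299). The other large subunits behaved alike, with TS-R replicate 1 far below: mt-Nd1 ranged from 10180 to 26800 CPM in the other 12 libraries and was at 1818 CPM there, and mt-Nd4 was at 1322 CPM against 12900 to 29770 CPM. mt-Nd5 had the least pronounced drop of these, with 2688 CPM in TS-R replicate 1 and 5295 to 13920 CPM elsewhere.

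mt-Nd4l and mt-Atp8, both short and both at the 5′ end of a shared transcript with a longer gene, varied far more than the rest. mt-Nd4l measured 168, 145.5 and 28.49 CPM across WTS-R, 1394, 41.89 and 619.1 across NS-R, 4.631, 233.2, 96.81 and 120.3 across TS-R, and 135.4, 251.1 and 474.9 across NTS-R. mt-Atp8, a short subunit of the ATP synthase, measured 45.48, 33.15 and 13.68 CPM across WTS-R, 313.5, 26.44 and 71.27 across NS-R, 0.70, 51.21, 15.04 and 45.74 across TS-R, and 32.29, 75.49 and 126 across NTS-R. Highest over lowest was 301-fold for mt-Nd4l and 445-fold for mt-Atp8, against 3.64-fold to 25.4-fold for the other 11 protein genes. Both were highest in NS-R replicate 1 and lowest in TS-R replicate 1, where mt-Atp8 rested on 21 counts. Groups overlapped in all comparisons, and the standard errors of their log2 fold changes exceeded 1 in TS-R against WTS-R (1.09 and 1.03). The fitted value of mt-Nd4l in that comparison was -0.28, and it was 0.14 without TS-R replicate 1 and 0.08 without WTS-R replicate 1; that of mt-Atp8 was -0.38, and 0.04 without TS-R replicate 1. Both genes share bases with their neighbours, and mt-Nd4l also has a copy on chromosome 1, so their counts are uncertain.

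mt-Cytb, the single mitochondrial gene of complex III, measured 45440, 48380 and 30850 CPM across WTS-R, 46610, 37490 and 69010 across NS-R, 7080, 45120, 32930 and 35810 across TS-R, and 39330, 50020 and 54290 across NTS-R. All groups overlapped, with TS-R replicate 1 alone far below. The log2 fold change was -0.73 (SE 0.58, edgeR FDR 0.48) for TS-R relative to WTS-R and 0.95 (SE 0.58, edgeR FDR 0.385) for NTS-R relative to TS-R.

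The complex IV genes split. mt-Co1 measured 121800, 127500 and 99030 CPM across WTS-R, 123300, 100400 and 164800 across NS-R, 38760, 107000, 70490 and 119300 across TS-R, and 118000, 137700 and 147100 across NTS-R, so TS-R replicates 2 and 4 lay inside the WTS-R range. mt-Co2, which holds the copper centre that receives electrons from cytochrome c, measured 6380, 4802 and 7178 CPM across WTS-R and 2742, 3865, 2303 and 4065 across TS-R, with no overlap. It measured 8548, 9404 and 11940 CPM across NS-R and 4218, 5476 and 6738 across NTS-R. NS-R thus lay above each of the other groups without overlap. The log2 fold change of mt-Co2 was -1.17 (SE 0.35, edgeR FDR 0.0836) for TS-R relative to WTS-R, 1.05 (SE 0.35, edgeR FDR 0.133) for NTS-R relative to TS-R, 0.70 (SE 0.38, edgeR FDR 1.0) for NS-R relative to WTS-R and -0.81 (SE 0.38, edgeR FDR 0.789) for NTS-R relative to NS-R. mt-Co3 measured 5883, 6003 and 6585 CPM across WTS-R, 6328, 6266 and 11940 across NS-R, 2633, 3646, 2224 and 4566 across TS-R, and 4655, 5574 and 5724 across NTS-R. TS-R was lowest for mt-Co3 without overlap with any group, and NTS-R lay below NS-R and WTS-R. Its log2 fold change was -1.17 (SE 0.38, edgeR FDR 0.102) for TS-R relative to WTS-R and 0.99 (SE 0.38, edgeR FDR 0.182) for NTS-R relative to TS-R. The chromosome 1 copies of mt-Co2 and mt-Co3, without mismatch, took 21.4% to 34.7% and 23.0% to 50.7% of the pair's counts by library. For mt-Co1, whose copy is partial, this was 1.43% to 3.27%. The part of the copies in the differences between these 3 genes was not tested.

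mt-Atp6, the proton channel subunit of complex V, measured 3550, 3503 and 5144 CPM across WTS-R, 6552, 4219 and 6755 across NS-R, 294, 2742, 1532 and 3352 across TS-R, and 3080, 5244 and 7461 across NTS-R. TS-R lay below WTS-R and NS-R without overlap, and NTS-R replicate 1 lay inside the TS-R range. The log2 fold change was -1.27 (SE 0.63, edgeR FDR 0.256) for TS-R relative to WTS-R and 1.70 (SE 0.63, edgeR FDR 0.169) for NTS-R relative to TS-R. The chromosome 1 copy of mt-Atp6 took 28.6% to 49.6% of the pair's counts by library.

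The rRNA genes form the RNA part of the mitochondrial ribosome, and both were lower in every TS-R library than in any WTS-R or NTS-R library. mt-Rnr1, the small rRNA, measured 2557, 3129 and 4316 CPM across WTS-R and 540.7, 1052, 1135 and 1961 across TS-R. It measured 1904, 3545 and 3820 CPM across NS-R and 2595, 3140 and 8589 across NTS-R. The TS-R range lay below those of WTS-R and NTS-R and met that of NS-R at replicate 1. Its log2 fold change was -1.75 (SE 0.54, edgeR FDR 0.0869) for TS-R relative to WTS-R and 2.33 (SE 0.54, edgeR FDR 0.105) for NTS-R relative to TS-R. mt-Rnr2, the large rRNA, measured 4030, 6138 and 5856 CPM across WTS-R, 3337, 5693 and 7148 across NS-R, 965.9, 1926, 1676 and 3716 across TS-R, and 3801, 5389 and 14250 across NTS-R. The groups overlapped in the same way, with log2 fold changes of -1.61 (SE 0.57, edgeR FDR 0.124) and 2.22 (SE 0.58, edgeR FDR 0.105). Neither rRNA gene lies in the stretch copied on chromosome 1. In the interaction, which asks whether the donor diabetes difference depends on donor Nlrp3, these 2 genes were the only members at an unadjusted p under 0.05 (4.7% of all genes in that direction). The interaction was 2.44 (SE 0.79, edgeR FDR 0.159) for mt-Rnr1 and 2.21 (SE 0.84, edgeR FDR 0.198) for mt-Rnr2, with 25 of 27 members fitted above 0 and 2 below (46.5% and 53.5% of all genes). None was below 0 at that p (13.6% of all genes). DESeq2 called mt-Rnr1 (0.55% of all genes; log2 2.44, DESeq2 FDR 0.0255).

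Together the rRNA genes held 0.659%, 0.927% and 1.02% of the counts in WTS-R, 0.524%, 0.924% and 1.10% in NS-R, 0.151%, 0.298%, 0.281% and 0.568% in TS-R, and 0.640%, 0.853% and 2.28% in NTS-R. All TS-R values lay below all WTS-R and NTS-R values. The ratio of geometric means was 0.341 for TS-R against WTS-R and 3.7 for NTS-R against TS-R (exact p = 0.0571 for each, adjusted p = 0.457). Set against the protein genes of the same library, rRNA counts per 100 protein gene counts were 2.65, 3.54 and 5.08 in WTS-R, 1.93, 4.29 and 3.09 in NS-R, 2.53, 1.33, 1.87 and 2.59 in TS-R, and 2.80, 3.03 and 7.35 in NTS-R. This ratio too lay below WTS-R and NTS-R in every TS-R library, though TS-R replicates 1 and 4 came close to WTS-R replicate 1. It was 0.554 times WTS-R (exact p = 0.0571) and NTS-R was 1.97 times TS-R (exact p = 0.0286, the smallest this design allows; adjusted p = 0.457 for both). The library kit is described as an mRNA kit, so rRNA counts cover only what that preparation retained.

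The tRNA genes were low. Of 21, 9 had a mean of 1 CPM or more and 8 had under 100 counts over all libraries together. mt-Tp held 66.3% of the tRNA counts, and the 8 tRNA genes on the light strand held 95.2%. mt-Tp measured 301.8, 135.7 and 293.5 CPM across WTS-R, 315, 360.1 and 261.6 across NS-R, 9.497, 343.6, 64.55 and 108.6 across TS-R, and 160.2, 209.9 and 428.3 across NTS-R, with overlap between all groups. mt-Tc, for cysteine, measured 44.1, 38.29 and 36.49 CPM across WTS-R, 42.39, 33.05 and 76.94 across NS-R, 9.161, 37.47, 21.96 and 50.04 across TS-R, and 45.56, 61.83 and 80.47 across NTS-R. These groups also overlapped, apart from NTS-R, which lay above WTS-R. mt-Tn, for asparagine, measured 32.98, 25.3 and 34.66 CPM across WTS-R, 48.77, 42.69 and 49.78 across NS-R, 5.537, 26.52, 11.42 and 31.09 across TS-R, and 36.64, 48.3 and 87.57 across NTS-R. NS-R and NTS-R each lay above TS-R and WTS-R without overlap, and the NTS-R log2 fold change against TS-R was 1.92 (SE 0.51, edgeR FDR 0.105). Most tRNA genes are shorter than a usual library fragment, and on the light strand their counts can include reads of the transcript opposite to them.

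In 12 of the 13 libraries, the shares of complexes I, III and IV varied less in proportion than that of complex V. Complex IV took 49.9% to 58.4% of the protein gene counts in these and complex I 23.7% to 29.5%. Complex III took 15.4% to 21.9% and complex V 1.03% to 2.57%. Within complex IV, mt-Co1 alone held 45.3% to 54.4% of the protein gene counts in these libraries. mt-Co2 held 1.53% to 4.37% and mt-Co3 1.48% to 3.36%. TS-R replicate 1 stood apart with 74.1% on complex IV, 13.5% on complex I, 11.9% on complex III and 0.495% on complex V. Group means of complex IV were 54.4% ± 1.74 (SD, n = 3) in WTS-R, 52.6% ± 1.62 (SD, n = 3) in NS-R, 58.4% ± 11.1 (SD, n = 4) in TS-R and 53.3% ± 2.14 (SD, n = 3) in NTS-R. Complex I had 26.4% ± 0.768 (SD, n = 3), 27.3% ± 2.07 (SD, n = 3), 22.9% ± 6.47 (SD, n = 4) and 27.4% ± 1.45 (SD, n = 3) in the same order. No share of a complex passed the test between groups (lowest exact p 0.0543, for complex V in the knockout average; adjusted p 0.457). Without TS-R replicate 1 the log2 difference of complex IV in TS-R against WTS-R turned from 0.09 to -0.03.

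**Figure D4:**
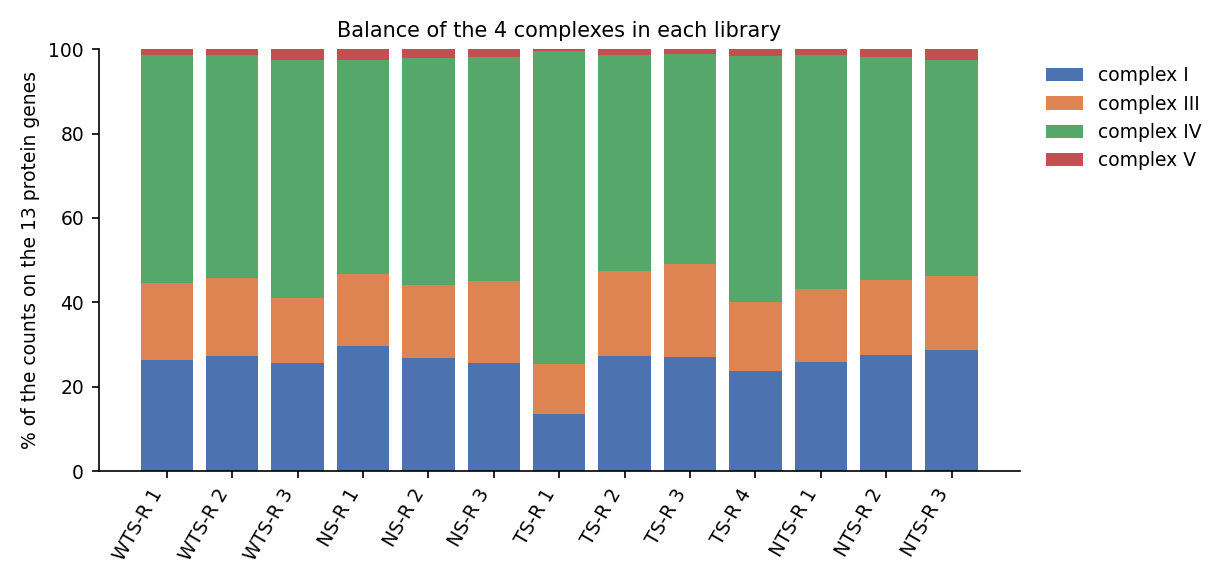
Percent of the counts on the 13 mitochondrial protein genes that fell on genes of complexes I, III, IV and V, stacked for each of the 13 libraries. TS-R replicate 1 has 74.1% on complex IV and 13.5% on complex I; in the other 12 libraries complex IV lies between 49.9% and 58.4%.

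In TS-R replicate 1 the low values were uneven along the chromosome. Of the 13 protein genes, 11 were below all other 12 libraries. mt-Atp8 was at 0.0189 of the mean of the other TS-R libraries, mt-Nd4l at 0.0309, mt-Nd4 at 0.0851, mt-Nd2 at 0.113, mt-Atp6 at 0.116, mt-Nd1 at 0.131 and mt-Cytb at 0.187. mt-Co1 was at 0.392 of that mean, the rRNA genes at 0.391 and 0.396, and mt-Nd6 at 0.531. mt-Co2 (0.804) and mt-Co3 (0.757) lay inside the range of the other libraries, although the protein genes on either side of each were lower. These are mt-Co1 and mt-Atp8 beside mt-Co2, and mt-Atp6 and mt-Nd3 (0.199) beside mt-Co3. This is the library with 15610 CPM on skeletal muscle markers, all 11 of which had counts. Its nuclear complex I genes summed to 13450 CPM, above the WTS-R range of 9067 to 11320 CPM. Its nuclear complex IV genes summed to 11130 CPM, within the WTS-R range of 8817 to 11490 CPM. These CPM are over all counts, so a low mitochondrial share raises them. Over nuclear counts, the mean log2(CPM + 0.5) of complex I was 8.54, within the 8.37 to 8.62 of WTS-R. That of complex IV was 9.38, below the 9.43 to 9.81 of WTS-R. The part of the muscle content in the mitochondrial counts of this library was not tested.

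The chromosome 1 copies moved with the members. They held 0.362% of the counts in TS-R replicate 1, 0.505% in TS-R replicate 3 and 0.937% to 1.61% in the other libraries. Of each pair's counts, a median of 30.1% was on the copy for mt-Co2, 41.6% for mt-Atp6, 31.9% for mt-Co3 and 41.6% for mt-Nd4l, but 1.83% for mt-Co1 and 3.25% for mt-Nd4, whose copies are partial. Adding the copies to their genes raised the mitochondrial share to between 6.47% and 38.3% of counts. No share or ratio then changed direction between TS-R and WTS-R, between NTS-R and TS-R, or in either donor average. Changes of direction for NS-R set beside WTS-R or NTS-R were not checked. Of the other annotated copies, Gm13340 on chromosome 2 (chr2:22588103-22589647) had a mean of 438 CPM, Gm10221 on chromosome 5 105 CPM, and Gm13341 and Gm13339 on chromosome 2 14.8 and 11 CPM.

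In NS-R against WTS-R, 26 of 27 members were fitted higher and 1 lower (50.8% and 49.1% of all genes; median 0.34, all genes 0.01). Without NS-R replicate 3 this was 17 higher and 10 lower, with a median of 0.12. Without NS-R replicates 1 and 2 in turn, which hold the airway and lung markers, the median was 0.42 and 0.56; the part of that content was not tested. None had an unadjusted p under 0.05 (4.92% of all genes were higher and 0.388% lower). For 4 of 27 the groups did not overlap, with NS-R higher, and for none with NS-R lower (7.78% and 4.02% of all genes). DESeq2 and limma voom called no member in this comparison or in the next. In NTS-R against NS-R, which is donor diabetes with Nlrp3 knocked out, 17 were fitted higher and 10 lower (49% and 51% of all genes; median 0.06), and none had an unadjusted p under 0.05 (1.25% of all genes higher and 5.11% lower). Without NTS-R replicate 3, 4 were fitted higher and 23 lower, with a median of -0.23, and without NS-R replicate 2, 9 higher and 18 lower, with a median of -0.10. CPM values did not overlap for mt-Co2 and mt-Co3, which were lower in NTS-R (7.76% of all genes), and for mt-Tq, which was higher (5.29%). Averaged over donor genotypes, donor diabetes gave fitted values below 0 for all 27 members (48.3% of all genes; 51.7% were above 0) with a median of -0.46. At an unadjusted p under 0.05, 3 were lower and none higher (4.78% and 6.6% of all genes): mt-Co2 at -0.99 (SE 0.26, edgeR FDR 0.251), mt-Co3 at -0.88 (SE 0.28, edgeR FDR 0.28) and mt-Nd6 at -0.57 (SE 0.25, edgeR FDR 0.424). DESeq2 called the first 2 of these lower (0.782% of all genes). Averaged over donor diabetes, donor Nlrp3 knockout gave values above 0 for all 27 (47.3% of all genes; 52.7% were below 0) with a median of 0.87. At an unadjusted p under 0.05, 16 were higher and none lower (3.18% and 3.45% of all genes), with a lowest edgeR FDR of 0.726. DESeq2 called mt-Co2 alone (0.226% of all genes). The edgeR count of 16 was 3 without NTS-R replicate 3, 9 without WTS-R replicate 3, and 10 without WTS-R replicate 2, NS-R replicate 1 or NS-R replicate 3.

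Nuclear genes that serve the mitochondrial genome were set beside its own genes by list. None was called by edgeR in any comparison. In TS-R against WTS-R, all 28 proteins of the small mitochondrial ribosomal subunit were fitted lower (median log2 fold change -0.50), 14 of them at an unadjusted p under 0.05 (7.07% of all genes), such as Mrps31 at -0.72 (SE 0.19, edgeR FDR 0.0686). All 31 nuclear complex I genes were fitted lower (median -0.61, 10 at that p), such as Ndufa1 at -1.14 (SE 0.31, edgeR FDR 0.0691), as were all 13 nuclear complex IV genes (median -0.74, 4 at that p), such as Cox7c at -1.04 (SE 0.27, edgeR FDR 0.0684). TS-R libraries were unlike in these lists. Over nuclear counts, the mean log2(CPM + 0.5) of complex I was 8.54, 8.09, 6.92 and 8.0 in TS-R replicates 1 to 4. That of complex IV was 9.38, 9.15, 7.64 and 9.09. Replicate 3 was thus lowest in both, whereas replicate 1 had the lowest mitochondrial share, 6.11%. The weight of replicate 3 in the list medians was not tested. Of the factors that transcribe and copy the mitochondrial genome, 12 of 16 were fitted lower (median -0.28, 4 at that p), among them Mterf3, a negative regulator of mitochondrial transcription, at -0.65 (SE 0.19, edgeR FDR 0.0811). Mterf1a, a termination factor of the same family, had 0.49 (SE 0.38, edgeR FDR 0.47). Of 23 genes that cut and modify mitochondrial RNA, 21 were fitted lower (median -0.39, 6 at that p), among them Mrm3, which methylates the large rRNA, at -0.78 (SE 0.22, edgeR FDR 0.0756). The 11 regulators of mitochondrial biogenesis had a median of 0.04, with 6 fitted higher and 5 lower. Of these, Nrf1, a transcription factor for nuclear respiratory genes, had 0.51 (SE 0.22, edgeR FDR 0.193). Its level was 14.4 to 15.5 CPM across WTS-R and 18.8 to 40.6 across TS-R, highest in replicate 3. These groups did not overlap, which held for 19.2% of all genes in that direction. The estrogen-related receptor gene Esrrb had 1.27 (SE 0.74, edgeR FDR 0.328). It rested on few counts, at 0.24, 0.45 and 0.88 CPM across WTS-R and a mean of 1.34 CPM over all libraries. The other genes named from these lists had -0.58 for Ptcd3 (SE 0.18), -0.75 for Mrps21 (SE 0.22), -0.75 for Ndufs5 (SE 0.29) and -1.05 for Cox8a (SE 0.32), with edgeR FDR from 0.0792 to 0.158. In NTS-R against TS-R, medians were 0.22 for the small ribosomal subunit, 0.27 for nuclear complex I and 0.37 for nuclear complex IV, where the mitochondrial genes had 1.36. In NS-R against WTS-R, the medians of these 3 lists were -0.31, -0.34 and -0.40, with every tested gene of the 3 lists fitted lower, where the mitochondrial genes had 0.34. In NTS-R against NS-R they were 0.03, 0.03 and 0.01, and those of RNA processing and of import and mass genes 0.20 each, where the mitochondrial genes had 0.06. In the knockout average, the small ribosomal subunit, complex I and complex IV lists had medians of -0.07, -0.04 and 0.01, where the mitochondrial genes had 0.87; the difference between the genomes was not tested.

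Over the 13 libraries, the mitochondrial level (log2 of mitochondrial over nuclear counts, scaled as CPM) was set against the level of each gene list, its mean log2(CPM + 0.5) with CPM taken over nuclear counts. For the 12 brown adipocyte genes, Spearman's rho was 0.819 (permutation p = 0.00093, adjusted p = 0.0186 over the 20 lists compared) and Pearson's r was 0.631 (permutation p = 0.054, adjusted p = 0.36). Without the 2 libraries farthest from the median of that level, WTS-R replicate 2 and TS-R replicate 3, r was 0.826. In deviations from the group means, r was 0.379 (permutation p = 0.455), so the relation was not shown within groups. For nuclear complexes I to V, r was 0.0629, 0.32, 0.158, 0.172 and 0.0197, and the lowest adjusted p was 0.45. TS-R replicate 1 weighed on these relations. Without it, r was 0.499 for complex I, 0.462 for complex IV, 0.784 for the brown adipocyte level and 0.819 for endothelium. It was then 0.75 for biogenesis regulators, 0.713 for RNA processing, 0.648 for cardiac muscle and 0.647 for import and mass genes. For B cells r was then -0.681 and for T cells -0.601, where all 13 libraries gave -0.269 and -0.257. The values without TS-R replicate 1 were not tested. Over all libraries, biogenesis regulators had a rho of 0.72 (permutation p = 0.0071, adjusted p = 0.071) and endothelium 0.5 (permutation p = 0.0846, adjusted p = 0.423). Libraries are the points here and share depth and tissue content, and 2 of the brown adipocyte genes, Cox7a1 and Cox8b, also stand in the complex IV list.

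**Figure D5:**
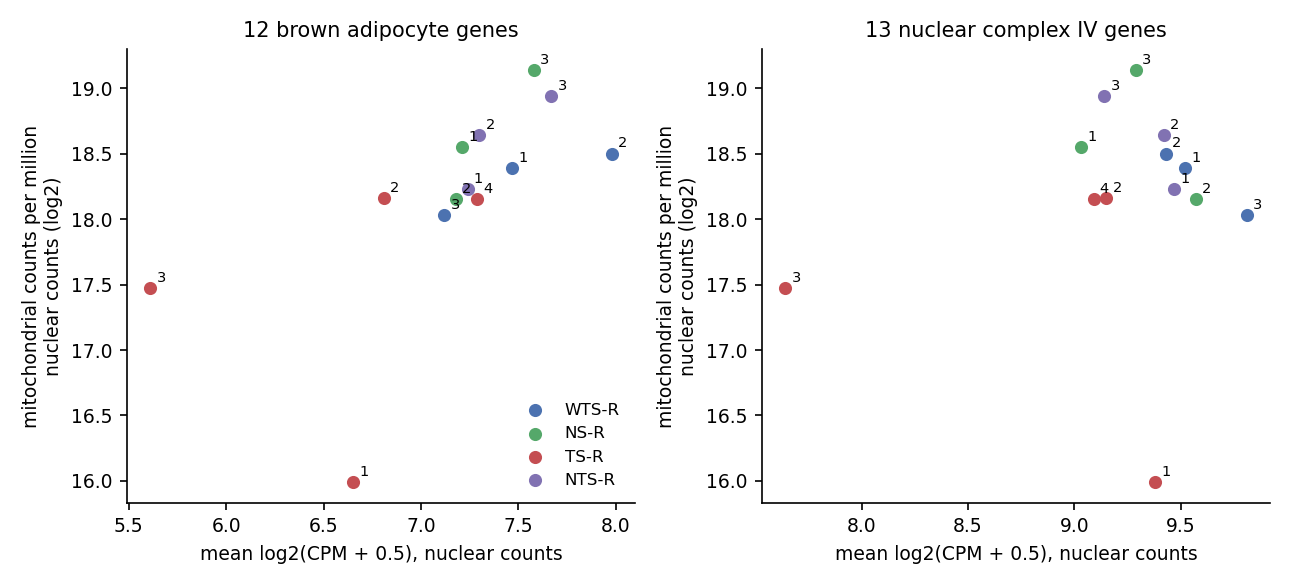
Mitochondrial counts relative to nuclear counts (log2, scaled as CPM) against the mean log2(CPM + 0.5) of 12 brown adipocyte genes (left) and of 13 nuclear complex IV genes (right). Each point is a library, coloured by group with its replicate number. TS-R replicate 1 lies lowest in both panels, and TS-R replicate 3 has the lowest nuclear level in both.

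Beside the TS-R values stand other contents of these libraries. The B cell markers summed to 29.8 to 2913 CPM across TS-R (10 of 10 with counts in each library), 12.1 to 17.3 across WTS-R (9 or 10 with counts), 18.9 to 22.3 across NS-R and 8.07 to 49.2 across NTS-R. The T cell markers summed to 27.8 to 903 CPM across TS-R and 8.75 to 29.97 CPM in the other libraries. The brown adipocyte markers summed to 1294 to 5794 CPM across TS-R, below the 6174 to 8134 CPM of WTS-R, to 4263 to 5704 across NS-R, which lay below WTS-R too, and to 4287 to 5227 across NTS-R. This separation depended on the measure. In mean log2(CPM + 0.5) over nuclear counts, TS-R at 5.61 to 7.29 and NS-R at 7.18 to 7.58 overlapped WTS-R at 7.12 to 7.98. Fibroblast matrix markers summed to 972.5 to 1603 CPM across TS-R, below the 2033 to 2773 CPM of WTS-R. This range overlapped those of NS-R (1310 to 3329 CPM) and NTS-R (1279 to 2580 CPM). Neutrophil markers summed to 53 to 354.9 CPM across TS-R, above WTS-R (9.39 to 16.8 CPM) and NTS-R (8.86 to 15.9 CPM). Across NS-R they summed to 13.5 to 768.5 CPM, with Ltf alone at 441.8 and 751.4 CPM in replicates 1 and 2. Cardiac muscle markers summed to 335 to 1638 CPM across TS-R and 1312 to 3073 across NTS-R. Across WTS-R they summed to 989.6 to 1883 CPM and across NS-R to 1678 to 2753 CPM. Their median log2 fold change was -0.62 in TS-R against WTS-R, 1.40 in NTS-R against TS-R and 0.98 in the knockout average. The mitochondrial genes had -0.90, 1.36 and 0.87 there. In the donor diabetes average the cardiac median was -0.13, where the mitochondrial genes had -0.46. The part of these contents in the mitochondrial values was not tested.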

How the data were processed

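Per the labels' protocols, RNA was extracted with TRIzol and paired-end mRNA libraries were made with an ABclonal kit. The authors deposited whole-number counts per gene for the 13 libraries; HISAT2 and featureCounts are named in the submitters' processing notes. Their build, annotation, strand setting and treatment of multi-mapping reads: not given in the sources used here. Of the gene IDs, 33302 matched a symbol and 711 did not. Positions and sequences are from GENCODE M21 (GRCm38).

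Groups were compared with edgeR 4.0.16 (R 4.3.3; TMM, low-count filter, quasi-likelihood test, 17270 genes, Benjamini-Hochberg FDR under 0.05), fitted over all 13 libraries. DESeq2 1.42.0, limma 3.58.1, other scalings, no filter, a replicate block and leaving out libraries were alternatives. Library totals were 14216706 to 37011122 counts. Shares and ratios were compared as log2 values in exact permutation tests, and correlations with 100000 resamples. List levels used a pseudocount of 0.5. The tests were checked on simulated data. No libraries were duplicates: within groups, chi-square over degrees of freedom was 36.0 or more. The rule for named genes took all protein and rRNA genes, the 3 most abundant tRNA genes, any called tRNA gene, copies with a mean of 1 CPM or more, and, of each pathway list, the 2 genes with the smallest p in the donor diabetes average. Of these list genes the text prints a part. Members and lists were chosen with earlier results of these data known.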

Additional observations from a re-analysis of the deposited data

How the results depend on the processing

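With RLE size factors or nuclear scaling, the median shift of the members' log2 fold changes was -0.0247 to 0.0233 over the 7 comparisons. Numbers of genes called at an FDR under 0.05 depended on the tool and on single libraries, where edgeR called 0; the cause was not tested. In TS-R against WTS-R, DESeq2 called 1906 genes, limma voom 3816, edgeR without a low-count filter 889, and edgeR without the TS-R and NS-R libraries numbered 3 together 50. In NTS-R against TS-R the first 3 gave 1429, 1638 and 404. In NS-R against WTS-R these 4 gave 190, 14, 138 and 674, in NTS-R against NS-R 208, 12, 126 and 758, and in the interaction 1086, 1872, 92 and 401. For the donor diabetes average, DESeq2 gave 477, limma voom 202 and the fit without the libraries numbered 3 360; for the knockout average DESeq2 gave 45 and the fit without those libraries 125. Leaving out 1 library gave 0 to 1906, 0 to 1018, 0 to 503, 0 to 563, 0 to 517, 0 to 239 and 0 to 87 calls in these 7 comparisons in order.

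Members called were 4 by DESeq2 and 4 by limma voom in TS-R against WTS-R (0 to 2 by edgeR with 1 library left out), 9, 4 and, without a filter, 2 in NTS-R against TS-R (0 to 5), 1 by DESeq2 in the interaction, 2 and 1 in the donor diabetes average and 1 by DESeq2 in the knockout average. The log2 fold change of mt-Nd4l in TS-R against WTS-R was 0.18 with limma voom and -0.90 to 0.14 with 1 library left out, and that of mt-Atp8 -0.817 to 0.0441.

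Same-numbered libraries did not all deviate together: 6 of 18 pairs had a correlation over 0.1 (range -0.26 to 0.27), and 5 of 13 libraries correlated best with their own number. The pairs over 0.1 were of libraries numbered 1 or 3. Replicate 3 of NS-R, TS-R and NTS-R correlated with each other at 0.119 to 0.203, and with WTS-R replicate 3 at -0.258 to -0.102. With a replicate block, edgeR called 784 genes and 2 members in TS-R against WTS-R, 76 genes and 2 members for NTS-R against TS-R, 19 genes in the interaction and 50 in the donor diabetes average.

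On plain values in place of log2, the mitochondrial share in the knockout average (8.2 percentage points), the rRNA share in NTS-R against TS-R (0.934 points) and the rRNA to protein ratio in TS-R against WTS-R (-1.68) had an exact unadjusted p under 0.05. The complex III difference turned to 0.19 in TS-R against WTS-R and to -0.0998 for NTS-R. Without genes that have copies on chromosome 1, and without mt-Atp8, it was 0.093 and -0.0995 on the log2 scale, 0.0298 in the donor diabetes average and -0.0362 in the knockout average; the rRNA to protein ratio in NTS-R against TS-R was 0.85, no longer under that p; complexes IV and V had no gene left. The cause was not tested.

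With 1 library left out, log2 differences ranged as follows. The knockout average was 0.366 to 0.681 for the mitochondrial share, 0.635 to 1.09 for the rRNA share, -0.0471 to 0.10 for complex III and 0.43 to 0.745 for complex V. The donor diabetes average was -0.842 to -0.383 for the rRNA share, -0.0877 to 0.0594 for complex III, -0.00882 to 0.0862 for complex IV and -0.598 to -0.324 for complex V. TS-R against WTS-R gave -0.136 to 0.158 for complex III, -0.0349 to 0.155 for complex IV and -0.166 to 0.212 for the mt-Nd6 share. NTS-R against TS-R gave -0.146 to 0.149 for complex III, -0.186 to 0.00448 for complex IV and 0.535 to 1.23 for the rRNA to protein ratio, which cannot reach an exact p of 0.05 with 3 against 3 libraries. Adding the counts of the chromosome 1 copies was an alternative chosen after seeing the data. It changed no direction or call of the shares between TS-R and WTS-R, between NTS-R and TS-R, or in either donor average. Directions for NS-R set beside WTS-R or NTS-R were not checked. The mitochondrial share was -0.931 to -0.30 in TS-R against WTS-R and 0.515 to 1.15 in NTS-R against TS-R.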
